A study of Homo sapiens with 12 samples.

Results

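The genes described here are 10 inflammatory genes of the NF-kB pathway: the chemokines CCL2, CXCL1, CXCL2, CXCL3, CXCL5 and CXCL8, the adhesion receptor ICAM1, the feedback inhibitors NFKBIA and TNFAIP3, and the NF-kB subunit RELB. They were taken by symbol from the deposited count and FPKM tables, where 10 of 10 were found among 61510 rows, and all 10 were among the 15653 genes with enough counts to be tested. RNA sequencing of total RNA was deposited for 12 libraries of A549/DDP, a cisplatin-resistant derivative of the A549 human lung adenocarcinoma line, in 4 groups of 3. Cells carried a control short hairpin (shNC) or a hairpin against NRF2 (shNRF2), the oxidative stress transcription factor encoded by NFE2L2. At 70% confluence each line received the solvent DMSO or 4 µM GNA (gambogenic acid, a caged xanthone from gamboge resin) for 24 h. All 4 groups were kept in medium with 1 µg/ml cisplatin. Each group is called by its hairpin and treatment. The labels name 1 line per hairpin, do not say whether a line is a clone or a pool, and leave unstated whether the replicates are separate cultures. The p-values here therefore measure library-to-library spread only, part or all of which may be technical.

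NF-kB is a family of dimeric transcription factors, including RELA, RELB, REL and the products of NFKB1 and NFKB2, that inhibitor proteins such as IkB-alpha (NFKBIA) hold in the cytoplasm until the IKK kinases mark the inhibitor for destruction. Freed dimers bind kappaB sites and raise transcription of chemokines, adhesion receptors and their own inhibitors, so that NFKBIA and TNFAIP3 transcripts are both a readout and a brake of the pathway. In lung epithelium CXCL1, CXCL2, CXCL3, CXCL5 and CXCL8 attract neutrophils through the receptor CXCR2, CCL2 attracts monocytes through CCR2, and ICAM1 is the ligand of leukocyte integrins.

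Library totals ran from 12848607 to 17192671 counts. The target of the hairpin, NFE2L2, was at 77.9 ± 3.60 CPM (counts scaled to a common library size; mean ± SD, n = 3) with DMSO and 87.4 ± 3.85 with GNA in the shNC line, and at 50.2 ± 2.80 with DMSO and 45.8 ± 2.00 with GNA in the shNRF2 line. It was thus lower with the hairpin, at 64.3% of the control level in DMSO and 52.4% in GNA, and its own response to GNA differed between the lines by -0.30 ± 0.090 (log2 ± SE, edgeR adjusted p 0.045). In shNC DMSO, replicate 1 stood farther from the other libraries of its group than those did from each other (chi-square per degree of freedom 7.68 and 6.05, against 3.63). The same held by less for shNC GNA replicate 1 (4.02 and 5.13, against 2.76) and shNRF2 DMSO replicate 3 (5.09 and 3.45, against 2.78). Keratin transcripts of an epithelial line were abundant, but KRT19 reached at most 0.153 CPM and EPCAM at most 3.60 CPM. Of 7 leukocyte markers 7 stayed under 1 CPM in every library, with a summed level of 0.307 to 1.07 CPM, and of 4 endothelial markers 4 did so. Of 5 fibroblast markers 3 did so, with COL1A1 at 4.60 to 7.98 CPM and LUM at up to 3.44 CPM, and the 5 summed to between 7.28 and 9.96 CPM over the 12 libraries. Of 6 alveolar type 2 markers 5 stayed under 1 CPM, and ABCA3 was at 14.3 to 26.6 CPM. The 6 epithelial markers summed to between 16500 and 17800 CPM in DMSO libraries and between 10500 and 11500 CPM in GNA libraries. Most of this sum was KRT8, at 7430 to 13300 CPM over the 12 libraries. The sum moved with the treatment, the single markers were not compared, and their part in the results below was not tested.

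Of the 10 genes, 8 had an entry in the RefSeq promoter table (GRCh38.p14), and the 250 bases before the RefSeq start were searched on both strands for kappaB sites. The sites are shown because each of these 8 genes holds a match to a form given below, while their transcripts moved in different directions. CCL2 and RELB could not be searched. Sequences run 5′ to 3′ on the gene's strand, and capitals mark matches to the 10-base kappaB consensus or to the shorter form GGNNNTTCC, which overlaps the consensus and was chosen after the sequences were seen. The windows of CXCL1 (chr4:73869143-73869392, plus strand) and NFKBIA (chr14:35404750-35404999, minus strand) are given whole. For the other 6, whose windows lie partly or wholly inside the longer GENCODE gene, 29 bases are shown around the first match: CXCL2 (chr4:74099249-74099277, minus), CXCL3 (chr4:74038744-74038772, minus), CXCL5 (chr4:73998744-73998772, minus), CXCL8 (chr4:73740474-73740502, plus), ICAM1 (chr19:10270930-10270958, plus) and TNFAIP3 (chr6:137867188-137867216, plus).
CXCL1: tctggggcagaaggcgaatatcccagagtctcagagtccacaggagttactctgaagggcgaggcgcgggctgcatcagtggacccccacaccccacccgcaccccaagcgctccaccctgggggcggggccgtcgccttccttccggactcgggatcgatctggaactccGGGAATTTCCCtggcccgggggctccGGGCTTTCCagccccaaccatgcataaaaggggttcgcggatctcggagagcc
CXCL2: ctccGGGAATTTCCCtggcccgggactcc
CXCL3: ctccGGGAATTTCCCtggcccggccgctc
CXCL5: ttcaGGGAATTTCCCcagcatcccaaagc
CXCL8: tcgtGGAATTTCCtctgacataatgaaaa
ICAM1: gcttGGAAATTCCggagctgaagcggcca
NFKBIA: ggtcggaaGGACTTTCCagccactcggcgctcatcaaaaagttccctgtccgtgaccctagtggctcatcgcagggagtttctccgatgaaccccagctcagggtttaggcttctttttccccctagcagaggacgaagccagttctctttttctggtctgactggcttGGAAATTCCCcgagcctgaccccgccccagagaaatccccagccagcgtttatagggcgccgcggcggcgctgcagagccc
TNFAIP3: ctttGGAAAGTCCCgtGGAAATCCCCggg

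The kappaB consensus was found in 6 of the 8 windows (CXCL1, CXCL2, CXCL3, CXCL5, NFKBIA and TNFAIP3), against 9.96% of 35116 RefSeq promoters of the same length. The shorter form was in 8 of 8 and in 17.1% of all promoters. Because it was chosen after these 8 windows were seen, its count is a description and no comparison can be drawn from it. The count of the consensus is likewise a description, since the genes were chosen as genes of the NF-kB pathway. The windows of CXCL1, CXCL2 and CXCL3 are also alike, as given below. In CXCL1, CXCL2 and CXCL3 the same 11 letters stand at nearly the same distance, from base -79, -78 and -79 relative to the start, and a further shorter match begins at -53 in each. CXCL5 holds the same 11 letters from -91. CXCL8 carries the 9-letter core of that site from -91 to -83 and was the only one of the 8 windows with the AP-1 motif TGANTCA (-137 to -131), which 6.57% of all promoters hold. NFKBIA has 2 matches, from -242 and from -81, and was the only one of the 8 with the antioxidant response element core TGACNNNGC (-65 to -57), found in 10.9% of promoters. TNFAIP3 has adjacent matches from -67 and from -55. The heat shock element GAANNTTC was in 0 of 8 windows and in 5.78% of promoters. Over the whole 250 bases, CXCL1 and CXCL3 were identical in 81.4% of alignment columns, CXCL2 and CXCL3 in 73.4%, and CXCL1 and CXCL2 in 70.1%. These matches describe letters only.

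Per transcript length, CXCL5 was by far the most abundant of the 10 genes in these cells. In shNC DMSO its level was 303 ± 5.48 FPKM (fragments per kilobase of transcript, scaled to the library's total), followed by NFKBIA at 52.5 ± 7.81, CCL2 at 35.9 ± 2.38, CXCL1 at 24.8 ± 2.74 and CXCL8 at 22.5 ± 1.66 FPKM. CXCL2 (18.5 ± 3.86) and TNFAIP3 (16.5 ± 0.333) came next, and RELB (8.88 ± 0.473), ICAM1 (8.47 ± 0.168) and CXCL3 (6.31 ± 0.548 FPKM) were lowest. CXCL1 and CXCL8 differed by less than their spread, and so did CXCL2 and TNFAIP3, and RELB and ICAM1. CXCL1, CXCL2, CXCL3, CXCL5 and CXCL8 lie in 1 cluster on chromosome 4 (GRCh38), with starts from 73740506 (CXCL8) to 74097035 (CXCL2). CCL2 lies on chromosome 17 (34255218 to 34257203), NFKBIA on 14 (35401511 to 35404749) and TNFAIP3 on 6 (137867188 to 137883312). ICAM1 (10270835 to 10286615) and RELB (45001430 to 45038198) are both on chromosome 19. Levels below are CPM on scaled totals and are compared only within a gene.

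**Figure D1:**
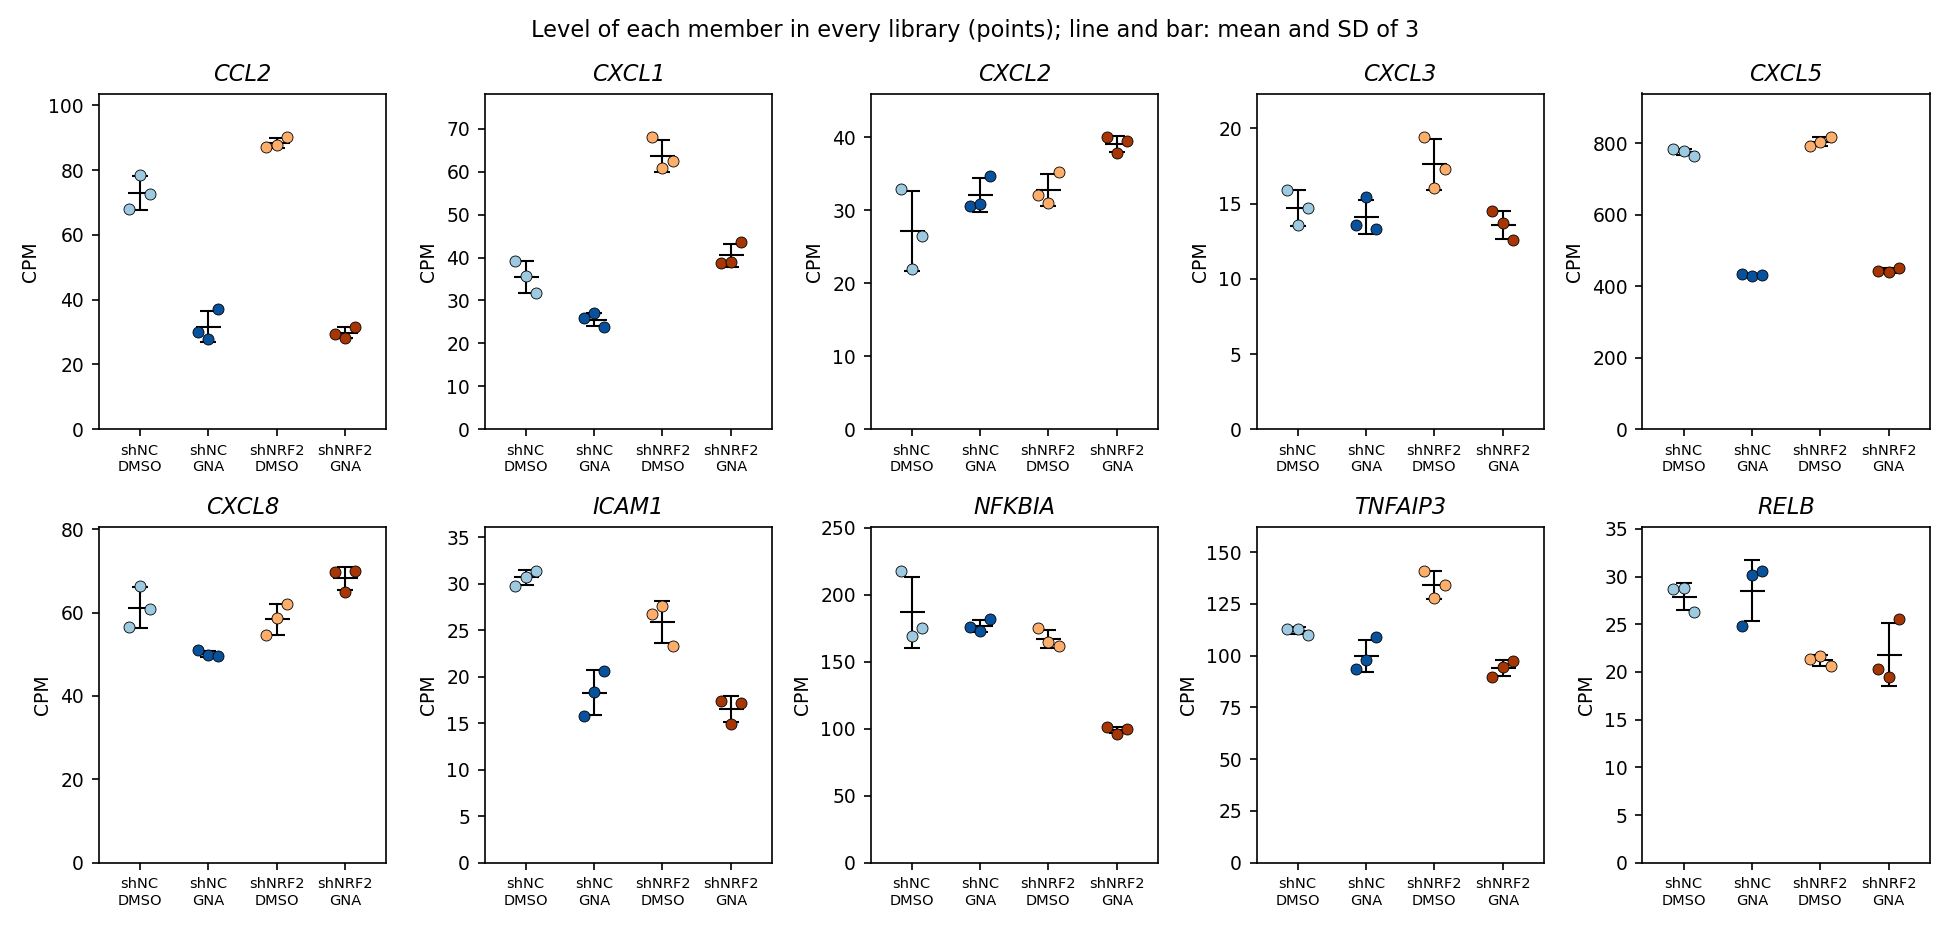
CPM of each of the 10 genes in the 12 libraries (points) with the group mean (line) and SD (bar), one panel per gene with its own linear axis, with shNC before shNRF2 and DMSO before GNA in each line. CXCL5 sits near 775 to 804 CPM in DMSO and 431 to 444 CPM in GNA, while NFKBIA is near 167 to 187 CPM in 3 groups and at 99.1 CPM in shNRF2 GNA.

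With GNA, 6 of the 10 genes fell and 0 rose in the shNC line, and 7 fell and 2 rose in the shNRF2 line. CCL2, CXCL5, ICAM1 and CXCL1 fell in both lines, CCL2 most. Among all 15653 genes tested with edgeR's quasi-likelihood test (Benjamini-Hochberg adjusted p under 0.05), 16.1% were called lower and 14.6% higher with GNA in shNC, and 17.0% lower and 16.7% higher in shNRF2. The median log2 fold change of the 10 genes was -0.22 in shNC and -0.59 in shNRF2, against 0.017 and 0.010 over all genes tested. The libraries of the 2 treatments did not overlap for 6 of the 10 genes in shNC (6 lower, 0 higher) and for 9 of 10 in shNRF2 (7 lower, 2 higher). Of all genes tested, 40.7% did not overlap in shNC (20.5% higher, 20.2% lower) and 44.9% in shNRF2 (22.8% higher, 22.1% lower). In bulk RNA, fewer cells that express a gene and less of its RNA per cell cannot be told apart. The count for shNC includes TNFAIP3 at an adjusted p of 0.046, which 12 of 16 alternatives took over 0.05, including the removal of any library compared except shNC GNA replicate 3, which leaves 5. The 0 genes called higher in shNC by edgeR became 1, CXCL2, at an unadjusted p under 0.05 and with limma, and stayed 0 with DESeq2. The 2 genes that rose in shNRF2, CXCL2 and CXCL8, became 0 without shNRF2 DMSO replicate 1.

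CCL2, the monocyte attractant, was at 67.9, 78.4 and 72.7 CPM in shNC DMSO and at 30.1, 27.9 and 37.0 CPM in shNC GNA. The shNRF2 line had 87.2, 87.8 and 90.1 CPM in DMSO and 29.3, 28.3 and 31.7 CPM in GNA. Every GNA library was below every DMSO library, and the lines overlapped in GNA but not in DMSO. Its level was 2.30-fold lower with GNA in shNC (log2 -1.20 ± 0.081 SE, edgeR adjusted p 6.8e-12) and 2.96-fold lower in shNRF2 (-1.57 ± 0.082, 1.8e-14).

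CXCL5, a neutrophil attractant, was at 784, 777 and 765 CPM in shNC DMSO and 434, 427 and 431 CPM in shNC GNA. In shNRF2 its levels were 793, 802 and 816 CPM in DMSO and 441, 440 and 451 CPM in GNA. The 2 treatments were far apart and the replicates close together in both lines. The log2 change was -0.85 ± 0.041 in shNC and -0.86 ± 0.041 in shNRF2 (edgeR adjusted p 1.1e-14 and 3.1e-15). The difference between these responses was -0.01, with a 95% interval from -0.14 to 0.12.

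ICAM1, the integrin ligand, was at 29.8, 30.7 and 31.4 CPM in shNC DMSO and 15.8, 18.4 and 20.6 CPM in shNC GNA. In the shNRF2 line ICAM1 was at 26.8, 27.6 and 23.3 CPM in DMSO and 17.4, 14.9 and 17.2 CPM in GNA. All GNA libraries lay below all DMSO libraries of the same line. It fell by 0.74 ± 0.096 on the log2 scale in shNC and by 0.65 ± 0.10 in shNRF2 (edgeR adjusted p 1e-06 and 7.9e-06), and the interval of the difference ran from -0.23 to 0.41. ICAM1 shares exon bases with the antisense genes AC011511.2 and AC011511.5, and TNFAIP3 with AL357060.1. Whether counting used strand is not given in the sources used here, so reads of these partners may be included.

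**Figure D2:**
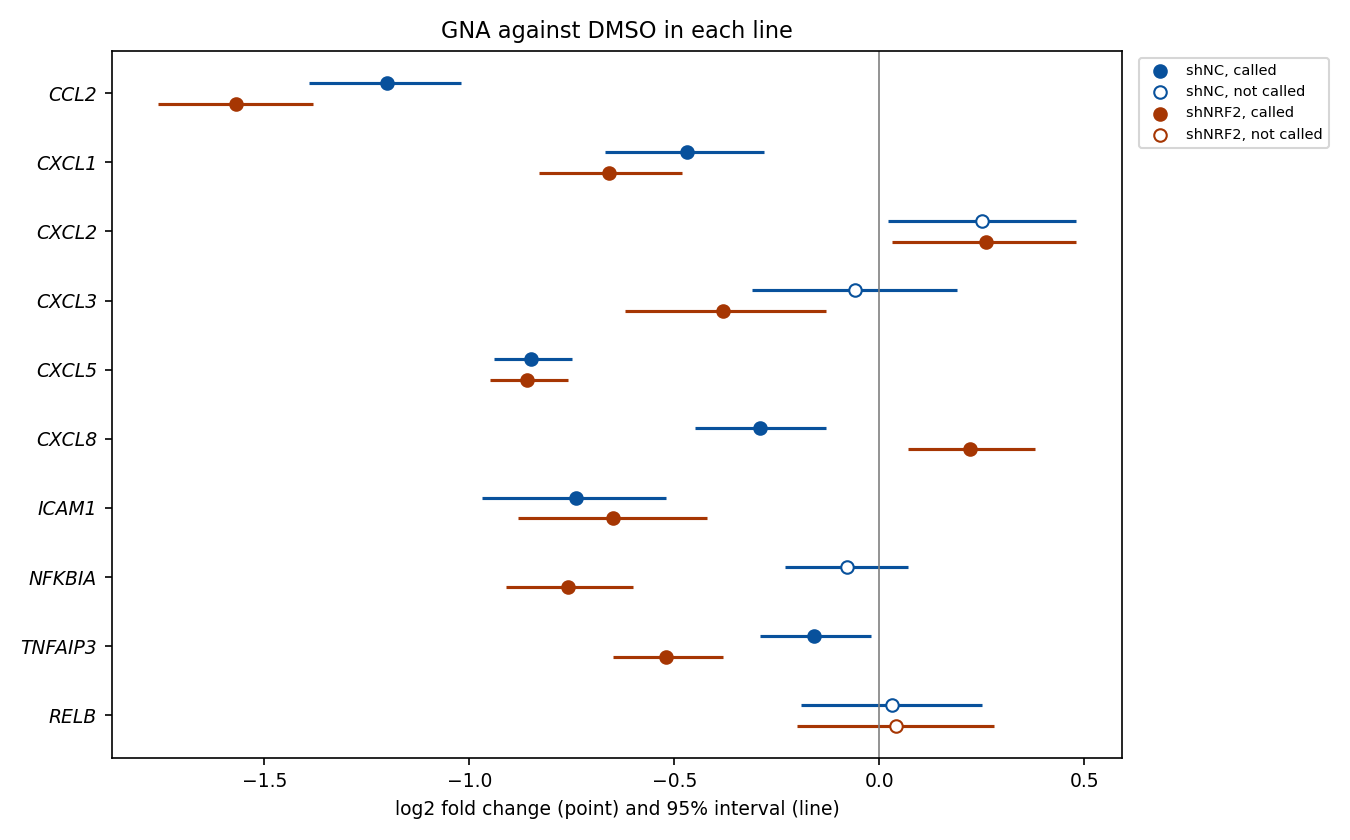
Log2 fold change of GNA against DMSO for the 10 genes in shNC and in shNRF2, as points with 95% intervals, filled where the edgeR adjusted p is under 0.05. CCL2 lies lowest at -1.20 and -1.57, CXCL8 lies on opposite sides of 0 at -0.29 and 0.22, and RELB lies at 0.03 and 0.04.

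CXCL1, CXCL2 and CXCL3 encode closely related ligands of CXCR2, and their counts responded differently to GNA. CXCL1 was at 39.1, 35.6 and 31.7 CPM in shNC DMSO and 25.8, 27.0 and 23.9 CPM in shNC GNA. The corresponding shNRF2 levels were 68.0, 60.9 and 62.4 CPM in DMSO and 38.8, 38.9 and 43.6 CPM in GNA. It fell in both lines without overlap, by 0.47 ± 0.084 and by 0.66 ± 0.078 on the log2 scale (edgeR adjusted p 7.6e-05 and 1.5e-07).

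CXCL2 was at 32.9, 22.0 and 26.5 CPM in shNC DMSO and 30.6, 30.9 and 34.7 CPM in shNC GNA. With the hairpin against NRF2 it was at 32.1, 31.0 and 35.2 CPM in DMSO and 40.0, 37.9 and 39.5 CPM in GNA. The groups overlapped in shNC, where replicate 1 of DMSO was the highest of its group, and did not overlap in shNRF2. Its log2 change was 0.25 ± 0.10 in shNC (edgeR adjusted p 0.062) and 0.26 ± 0.098 in shNRF2 (0.046). Without shNC DMSO replicate 1 the shNC value was 0.41 (adjusted p 0.0014). The shNRF2 call was lost, at adjusted p from 0.064 to 0.17, without any 1 of the 6 libraries compared except shNRF2 DMSO replicate 3.

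CXCL3 was the least abundant chemokine, at 15.9, 13.6 and 14.7 CPM in shNC DMSO and 13.6, 15.4 and 13.3 CPM in shNC GNA, which overlapped. The shNRF2 line had 19.4, 16.0 and 17.3 CPM in DMSO and 14.5, 13.7 and 12.6 CPM in GNA, with no overlap. It fell in shNRF2 by 0.38 ± 0.107 on the log2 scale (edgeR adjusted p 0.0074; 0.067 without shNRF2 DMSO replicate 1). In shNC the value was -0.06 ± 0.108 (adjusted p 0.72), and it was 0.04 when scaled by library totals.

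The 3 transcripts share stretches that short reads may not resolve. Of all 50-base windows of CXCL2 transcripts, 8.99% also occur in CXCL3, and 4.81% of those of CXCL1 occur in CXCL2. Summed over the 3 genes, the level in shNC was 77.3 ± 9.22 CPM with DMSO and 71.7 ± 1.64 with GNA, and in shNRF2 it was 114 ± 5.84 and 93.2 ± 2.61 CPM. The sum fell with GNA in shNRF2 (log2 -0.29 ± 0.066, edgeR adjusted p 0.00096), and its value in shNC was -0.11 ± 0.068 (0.26). Within the sum, CXCL2 held 34.9 ± 3.50% of the shNC counts with DMSO and 44.8 ± 3.19% with GNA, and 28.7 ± 1.87% and 42.0 ± 0.815% of those of shNRF2. The share of CXCL2 was thus higher in every GNA library than in every DMSO library of the same line.

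The response to GNA differed between the lines for 3 of the 10 genes when the difference itself was tested: it was higher in shNRF2 for CXCL8 and lower for NFKBIA and TNFAIP3. Over all genes tested, 3.58% were called higher and 3.24% lower in this comparison, and 6.82% in either direction. The median difference was -0.10 for the 10 genes and -0.005 for all. Each gene's 4 groups enter this test together, so it shares its libraries with the single comparisons.

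CXCL8, the neutrophil attractant interleukin-8, was at 56.6, 66.3 and 60.8 CPM in shNC DMSO and 51.0, 49.9 and 49.5 CPM in shNC GNA. In shNRF2 it was at 54.7, 58.6 and 62.1 CPM in DMSO and 69.6, 65.0 and 70.0 CPM in GNA. GNA libraries were all lower than DMSO libraries in shNC and all higher in shNRF2. The log2 change was -0.29 ± 0.068 in shNC (edgeR adjusted p 0.0016) and 0.22 ± 0.067 in shNRF2 (0.01), the latter 0.18 (0.075) without shNRF2 DMSO replicate 1. The difference of the responses was 0.51 ± 0.095 (95% interval 0.29 to 0.73, edgeR adjusted p 0.001). It was called under 21 of 21 alternatives, with values from 0.45 to 0.57.

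NFKBIA, which encodes the inhibitor IkB-alpha, was at 218, 169 and 175 CPM in shNC DMSO and 176, 173 and 182 CPM in shNC GNA. Its shNRF2 levels were 175, 165 and 162 CPM in DMSO and 101, 96.3 and 99.8 CPM in GNA. The shNRF2 GNA libraries were below all 9 others, and the other 3 groups overlapped. It fell in shNRF2 to 59.2% of the DMSO level (log2 -0.76 ± 0.068, edgeR adjusted p 1.1e-09). In shNC the value was -0.08 ± 0.066 (0.4), and it was 0.04 without shNC DMSO replicate 1, the high library, and 0.02 when scaled by library totals. The difference was -0.68 ± 0.095 (interval -0.90 to -0.46, edgeR adjusted p 3.3e-05), and stayed between -0.80 and -0.61 under 21 alternatives, all called.

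TNFAIP3, a ubiquitin-editing enzyme that shuts off signalling to IKK, was at 113, 113 and 110 CPM in shNC DMSO and 93.8, 97.8 and 109 CPM in shNC GNA. In shNRF2 it was at 141, 128 and 134 CPM in DMSO and 89.7, 94.4 and 97.4 CPM in GNA. The treatments did not overlap in either line, but the highest shNC GNA library was just below the lowest shNC DMSO library. The log2 change was -0.16 ± 0.059 in shNC (edgeR adjusted p 0.046) and -0.52 ± 0.059 in shNRF2 (7.9e-08). Their difference was -0.36 ± 0.083 (interval -0.55 to -0.17, edgeR adjusted p 0.0079), with values from -0.40 to -0.29 under 21 alternatives, all called.

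The response of CCL2 differed by a value of the same size, -0.36 ± 0.115 (interval -0.63 to -0.10), at an edgeR adjusted p of 0.055. It passed 0.05 under 7 of 21 alternatives, including the removal of shNC DMSO replicate 2, shNC GNA replicate 1 or shNC GNA replicate 2 (adjusted p 0.038, 0.042 and 0.023). For CXCL1 the difference was -0.18 (interval -0.45 to 0.08), for CXCL3 -0.32 (-0.67 to 0.03), for CXCL2 0.01 (-0.32 to 0.33) and for RELB 0.01 (-0.32 to 0.33).

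**Figure D3:**
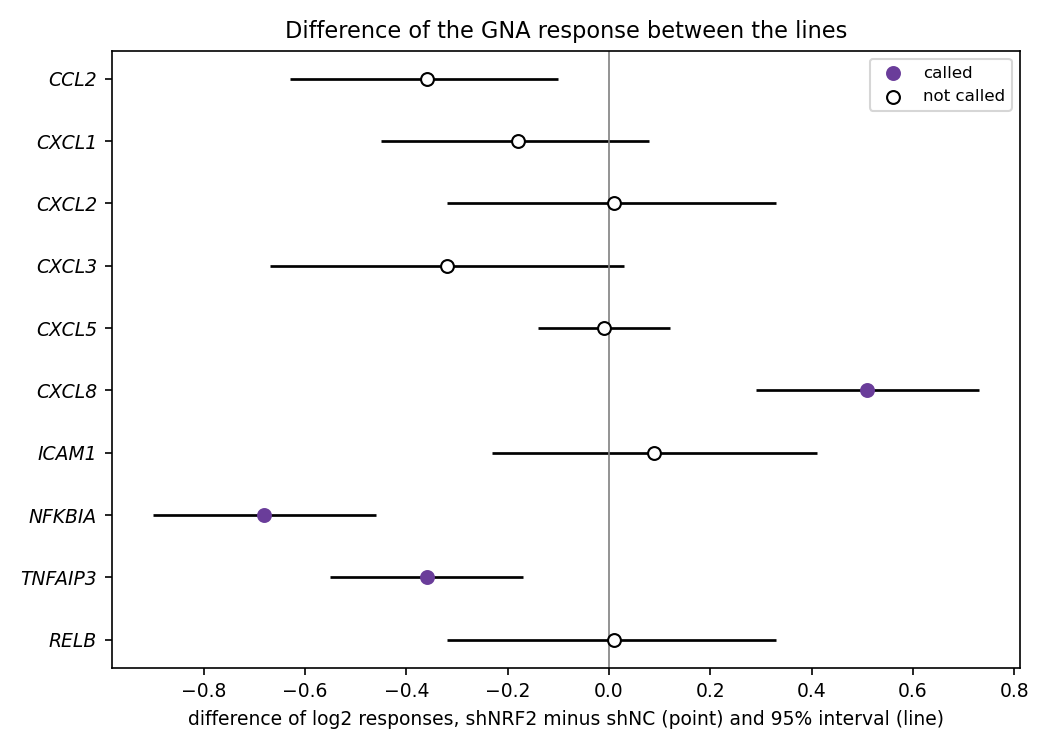
Difference of the log2 GNA response, shNRF2 minus shNC, for the 10 genes, as points with 95% intervals, filled where the edgeR adjusted p is under 0.05. CXCL8 is at 0.51, NFKBIA at -0.68 and TNFAIP3 at -0.36, and CCL2 at -0.36 has the adjusted p of 0.055.

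RELB, the subunit that pairs with NFKB2 products in the non-canonical pathway, was at 28.7, 28.8 and 26.3 CPM in shNC DMSO and 24.8, 30.2 and 30.6 CPM in shNC GNA. In shNRF2 it was at 21.4, 21.7 and 20.6 CPM in DMSO and 20.3, 19.5 and 25.5 CPM in GNA. Treatments overlapped in both lines. The log2 change with GNA was 0.03 (95% interval -0.19 to 0.25, edgeR adjusted p 0.84) and 0.04 (-0.20 to 0.28, 0.8).

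The hairpin comparison used the same 12 libraries, so its values stand beside those above and are not independent of them. In DMSO, 4 of the 10 genes were higher in shNRF2 than in shNC (CXCL1, TNFAIP3, CCL2 and CXCL2) and 2 were lower (RELB and ICAM1), where 16.8% of all genes tested were called higher and 18.3% lower. In GNA, 3 were higher (CXCL1, CXCL8 and CXCL2) and 2 lower (NFKBIA and RELB), against 12.8% and 13.3% of all genes. RELB was the only one of the 10 called lower in DMSO without shNRF2 DMSO replicate 1 or 3. Without shNC DMSO replicate 2 or 3 the ICAM1 call was also lost and NFKBIA was called lower, so a count of 2 there holds other genes. CXCL3 (0.26 ± 0.106, edgeR adjusted p 0.057) did not overlap between the lines in DMSO. It was called higher in 7 of 17 alternatives, among them the removal of shNC DMSO replicate 1 (0.043) or shNRF2 DMSO replicate 2 (0.039). The 7 also include the sum of CXCL1, CXCL2 and CXCL3 (0.56, 1.9e-07), which is not a value of CXCL3 alone. CXCL5 was called higher in 3 of 16. In either direction 35.2% of all genes were called in DMSO and 26.1% in GNA. The lines did not overlap for 7 of the 10 genes in DMSO (5 higher, 2 lower), where 43.2% of all genes did not (21.3% higher, 21.9% lower), and for 5 of 10 in GNA (4 higher, 1 lower), where 40.9% did not (21.2% higher, 19.7% lower). The medians of the 10 genes were 0.16 in DMSO and -0.07 in GNA, and 0.011 and 0.013 over all genes. Only 1 line carried each hairpin, so the hairpin and any other difference between the lines cannot be told apart.

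CXCL1 had the largest rise of the 10 genes with the hairpin, 1.80-fold in DMSO (log2 0.85 ± 0.079, edgeR adjusted p 2.8e-09) and 1.59-fold in GNA (0.67 ± 0.083, 5.9e-07). Its shNRF2 libraries were above all shNC libraries within each treatment. RELB was lower by a like amount in both treatments, at 76.0% of the shNC level in DMSO (-0.40 ± 0.10, 0.0027) and 76.4% in GNA (-0.39 ± 0.098, 0.0039). The RELB libraries overlapped in GNA, where shNC GNA replicate 1 (24.8 CPM) was below shNRF2 GNA replicate 3 (25.5 CPM). CXCL2 was 0.28 ± 0.101 higher in DMSO (edgeR adjusted p 0.034), with overlapping libraries, and 0.28 ± 0.098 higher in GNA (0.031). The first of these calls was lost without shNC DMSO replicate 2 or 3 or without shNRF2 DMSO replicate 1 or 3 (0.06 to 0.29), and the value was 0.14 without shNC DMSO replicate 2. The second was lost without shNC GNA replicate 1 or 2 or without shNRF2 GNA replicate 1 or 3 (0.082 to 0.1).

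For TNFAIP3 and CCL2 the lines were apart in DMSO and overlapped in GNA. TNFAIP3 was 0.27 ± 0.059 higher in shNRF2 DMSO (edgeR adjusted p 0.00072), with -0.09 ± 0.060 in GNA (0.27). CCL2 was 0.27 ± 0.076 higher in DMSO (0.0058), with -0.09 ± 0.087 in GNA (0.5). NFKBIA and CXCL8 were apart in GNA: NFKBIA stood at 55.9% of the shNC level (-0.84 ± 0.068, 2.8e-10) and CXCL8 at 136% (0.44 ± 0.067, 1.2e-05). In DMSO their values were -0.16 ± 0.067 (0.063) and -0.07 ± 0.067 (0.46). The NFKBIA value in DMSO was -0.05 (0.51) without shNC DMSO replicate 1, the high library, and was called without shNC DMSO replicate 2 (-0.23, 0.012) or 3 (-0.21, 0.031) and with no low-count filter (0.049). The ICAM1 call in DMSO (-0.24 ± 0.094, edgeR adjusted p 0.047) was lost in 11 of 16 alternatives, among them the removal of shNC DMSO replicate 2 or 3 or shNRF2 DMSO replicate 1 or 3 (0.068 to 0.21). CXCL5 was at 0.05 (95% interval -0.04 to 0.15) in DMSO and 0.04 (-0.05 to 0.14) in GNA.

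**Figure D4:**
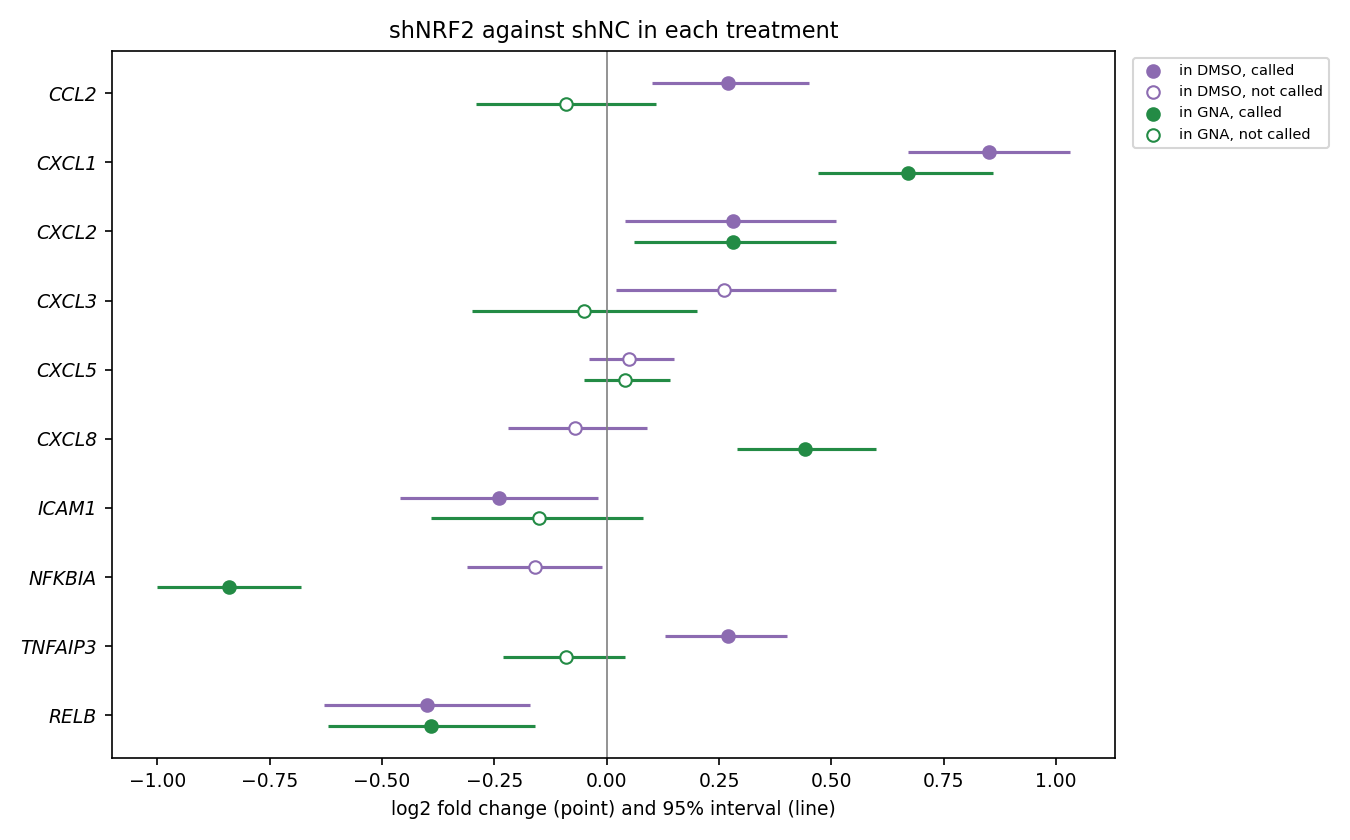
Log2 fold change of shNRF2 against shNC for the 10 genes in DMSO and in GNA, as points with 95% intervals, filled where the edgeR adjusted p is under 0.05. CXCL1 is highest at 0.85 and 0.67, RELB is at -0.40 and -0.39, and NFKBIA moves from -0.16 in DMSO to -0.84 in GNA.

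Other parts of the pathway were counted over 8 lists of 97 genes, of which 81 could be tested. With GNA, 9 of the 81 rose and 18 fell in shNC (33.3% called, against 30.7% of all genes tested), and 8 rose and 23 fell in shNRF2 (38.3%, against 33.7%). Of 13 other NF-kB target genes, 6 fell in shNC and 9 fell in shNRF2, at medians of -0.15 and -0.25, where 16.1% and 17.0% of all genes were called lower and the medians of all genes were 0.017 and 0.010. Examples are SOD2, the mitochondrial superoxide dismutase (-0.47 ± 0.048 in shNC, edgeR adjusted p 1.6e-08), and PLAU, the urokinase (-0.63 ± 0.077 in shNRF2, 2.4e-07). Of 7 regulators of chemokine mRNA decay, 4 fell and 1 rose in shNC and 5 fell in shNRF2, at medians of -0.18 and -0.33. They include HNRNPD, an AU-rich element binding protein (-0.39 ± 0.042 in shNC, 5.7e-08), and ZFP36L1, a decay factor (-0.47 ± 0.062 in shNRF2, 8.6e-07).

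Of the 4 other subunits, NFKB1 fell in both lines (-0.34 ± 0.087 and -0.47 ± 0.087, edgeR adjusted p 0.0037 and 9e-05). NFKB2, whose product pairs with RELB, rose by 0.22 ± 0.063 in shNRF2 (0.0079) with overlapping libraries. Beside the shares of all genes called in either direction, 30.7% in shNC and 33.7% in shNRF2, the 10 IKK and upstream kinases had 1 call in each line, a rise of IKBKB in shNC (0.27 ± 0.079, 0.01) and a fall of MAP3K14 in shNRF2 (-0.43 ± 0.095, 0.00083). Among 11 tested inhibitors, 2 rose and 1 fell in shNC and 1 rose in shNRF2, where CYLD, a deubiquitinase, was higher by 0.34 ± 0.067 (0.00022). Of 14 adaptors and ubiquitin ligases, 4 rose and 3 fell in shNC, and 3 rose and 1 fell in shNRF2. Their medians were 0.11 and 0.20, against 0.017 and 0.010 over all genes. They held the opposite moves of RBCK1, a part of the linear ubiquitin ligase (0.85 ± 0.053 and 0.96 ± 0.053, 1.8e-12 and 4.9e-14), and BIRC3 (-0.51 ± 0.062 and -0.42 ± 0.063, 4.1e-07 and 5.7e-06). TRAF1 rose in shNRF2 (1.16 ± 0.091, 8.3e-11), and its response differed between the lines by 1.17 ± 0.125 (4e-07). Its mean level was 29.8 CPM with DMSO and 29.5 with GNA in shNC, and 15.4 and 34.4 CPM in shNRF2. With the hairpin TRAF1 was thus lower in DMSO (-0.95 ± 0.092, edgeR adjusted p 5.9e-09). In GNA the hairpin difference was not called (0.22 ± 0.084, 0.054), though the libraries did not overlap.

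Only 7 of 15 listed receptors could be tested. CXCR1 had 3 counts and CXCR2 5 counts in all 12 libraries together, so the known receptors of the neutrophil attractants were close to undetected at this depth. With GNA, 0 of the 7 rose and 1 fell in shNC, and 2 rose and 1 fell in shNRF2. Of all genes, 14.6% were called higher and 16.1% lower in shNC, and 16.7% and 17.0% in shNRF2. The list medians were -0.02 and 0.05. TNFRSF1A, the main TNF receptor, was the 1 that fell in each line (-0.38 ± 0.063 and -0.23 ± 0.065, edgeR adjusted p 3.7e-05 and 0.0078). The 2 that rose in shNRF2 had mean levels under 5 CPM.

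**Figure D5:**
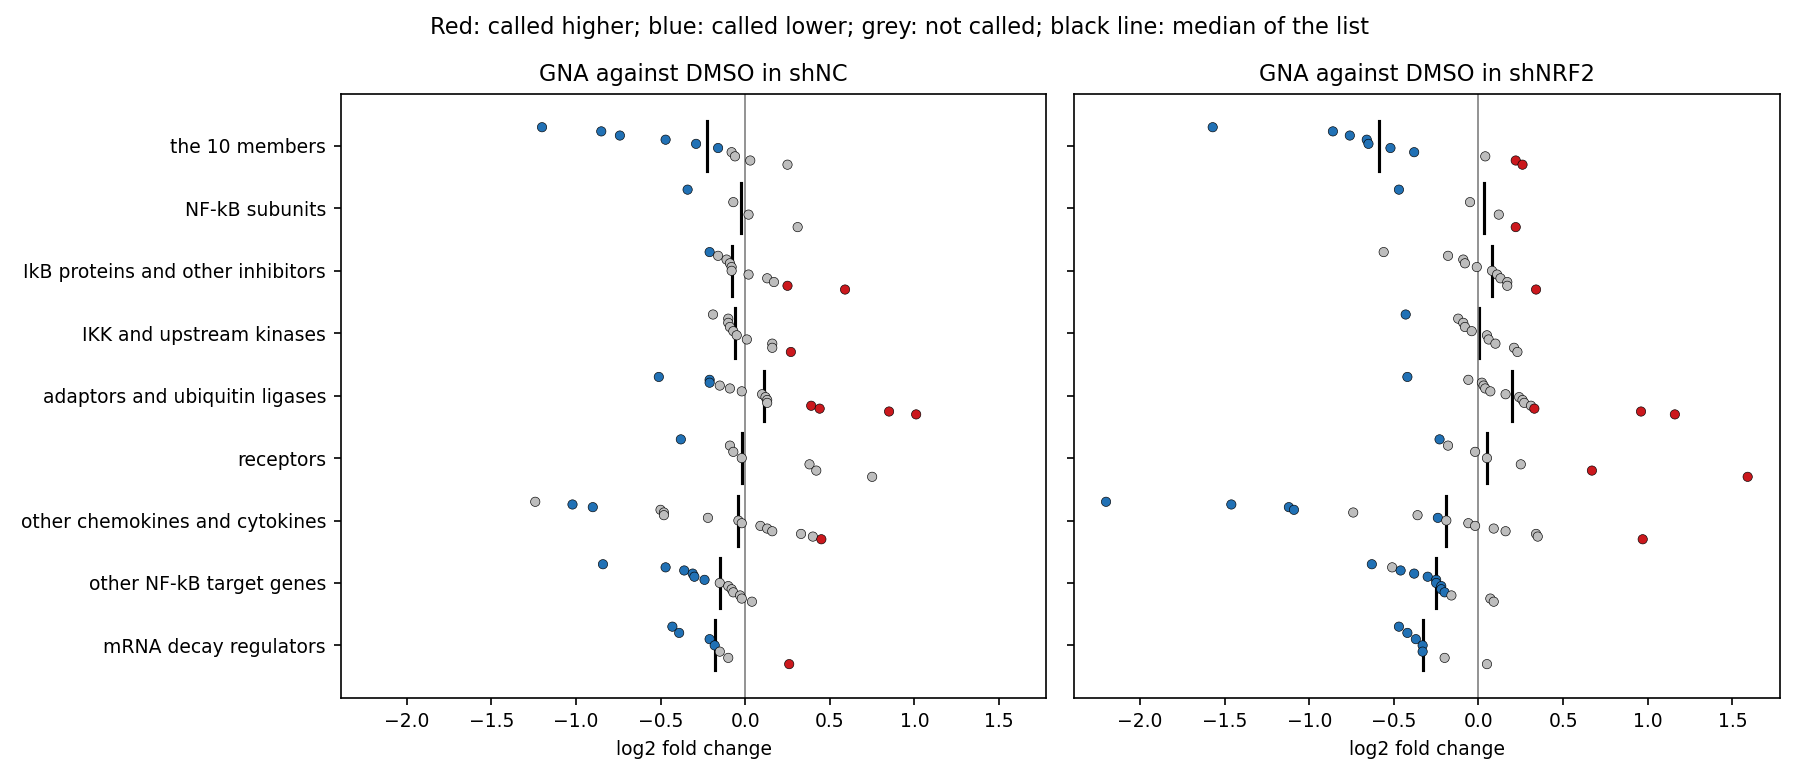
Log2 fold change of GNA against DMSO in shNC (left) and shNRF2 (right) for each tested gene of the 10 members and of 8 context lists, red where called higher, blue where called lower and grey otherwise, with the list median as a black line. The members have medians of -0.22 and -0.59, and the other NF-kB target genes of -0.15 and -0.25.

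As a description of pattern, the genes most like 4 of the members were sought by Pearson correlation of log2(CPM + 1) over the 12 libraries among 9994 genes, which share these libraries and their group structure. CCL2 was most like TPX2 (r = 0.992), ZWINT (0.991) and RACGAP1 (0.991). ICAM1 was most like MRPS2 (0.982), LPCAT1 (0.974) and AMPD2 (0.972). NFKBIA was most like FAM20B (0.973), HNRNPAB (0.965) and HAVCR1 (0.959). CXCL8 had less close matches, among them SRP68 (0.906) and HDLBP (0.884). Between members, CCL2 and CXCL5 had r = 0.98, and CXCL8 and NFKBIA had r = -0.71.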

How the data were processed

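Levels were measured by RNA sequencing of total RNA in 12 libraries, mapped to groups by title. The authors deposited raw counts per gene and, separately, FPKM values. Per the submitters' processing notes, the build was GRCh38 and DESeq2 was used; the sources used here give no aligner, counting tool, strand setting or annotation. In the deposited data, FPKM equalled counts divided by the column total and a fixed length for 100% of 9787 genes checked (relative tolerance 0.001). Single-cell data were not analysed here.

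Genes were filtered with filterByExpr (minimum count 10, minimum total 15), given TMM factors and fitted in edgeR 4.0.16 under R 4.3.3 by the quasi-likelihood method (glmQLFit, glmQLFTest), with 1 coefficient per group, 8 residual degrees of freedom and Benjamini-Hochberg adjustment over 15653 genes. Called means an adjusted p under 0.05. SE is the log2 fold change divided by the square root of F. The 95% intervals are the value ± this SE times the t quantile at 8 degrees of freedom, unadjusted for the number of genes. The quasi-likelihood p-values use more degrees of freedom, so an interval can include 0 where the unadjusted p is under 0.05. The CXCL3 difference is such a case (interval -0.67 to 0.03, edgeR unadjusted p 0.048, adjusted p 0.24). An exact permutation test of 3 against 3 cannot go below 0.1. Scaling by library totals moved the median of all genes by 0.102 log2 for GNA in shNC and the share of calls that were higher from 47.5% to 69.7%. It moved that share from 49.6% to 61.6% for GNA in shNRF2, from 47.9% to 58.7% for the hairpin in DMSO and from 52.5% to 38.1% for the difference.

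The members and lists were chosen with earlier results of these data known. All members are named, at most 4 called genes per list (the largest changes each way at 5 CPM or more) and the 3 most alike genes for 4 members, of which 1 is not reported here. Which of these genes appear in the text was chosen after their values were seen. Alternatives were other scalings, low-count filters, DESeq2 1.42.0, limma 3.58.1 on log2 FPKM, a replicate block, the compared groups alone, CXCL1 to CXCL3 summed, and each library left out.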

Additional observations from a re-analysis of the deposited data

Results flagged for a closer look

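For 3 of the 10 genes a direct test of how far the GNA response differed between lines passed the threshold (edgeR's quasi-likelihood test, Benjamini-Hochberg adjusted over all genes), and their values deserve a second look for that reason. CXCL8 had a difference of 0.51 on the log2 scale (shNRF2 minus shNC), with all 3 GNA libraries below DMSO in shNC and all 3 above DMSO in shNRF2. NFKBIA had a difference of -0.68, with overlapping treatments in shNC. TNFAIP3 had a difference of -0.36. The shNC DMSO library with the highest NFKBIA, replicate 1, is the one that stood apart in its group, and leaving it out kept the NFKBIA call. No outlier test was run on the groups, which hold 3 libraries each.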

How the results depend on the processing

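Of 865 values of the 10 genes under alternatives, 753 kept direction and side of the threshold, 46 lost a call, 27 gained one and 39 changed sign. The sum of CXCL1, CXCL2 and CXCL3 is counted in these under each of its genes. All 39 are printed here singly or as the range over left-out libraries, and the cause of these changes was not tested. With GNA in shNC, the count of genes called higher was 0 and became 1 (CXCL2) with upper-quartile factors, library totals, no filter, limma at either pseudocount and the replicate block. It was 0 to 1 over left-out libraries (1 without shNC DMSO replicate 1). In shNRF2 the count of 2 became 1 with DESeq2 size factors, DESeq2 and limma at either pseudocount. It was 0 to 2 over left-out libraries (0 without shNRF2 DMSO replicate 1). Genes lower with the hairpin in DMSO went from 2 to 1 with upper-quartile factors, library totals, DESeq2, limma at either pseudocount and the replicate block. They were 1 to 2 over left-out libraries (1 without shNRF2 DMSO replicate 1 or 3), and without shNC DMSO replicate 2 or 3 the 2 genes were RELB and NFKBIA, since ICAM1 lost its call.

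Signs changed only in values that were not called, except where CXCL1, CXCL2 and CXCL3 were summed. The sum gave -0.11 and -0.29 for GNA in shNC and shNRF2, where CXCL2 alone was above 0. It gave 0.38 for the hairpin in GNA, where CXCL3 alone was below 0, and -0.19 for the difference, where CXCL2 alone was above 0. With library totals and with limma at pseudocounts 1 and 0.1, the shNC values were 0.04, 0.03 and 0.04 for CXCL3 and 0.02, 0.03 and 0.03 for NFKBIA. The differences were -0.03, -0.04 and -0.04 for CXCL2 and -0.03, -0.03 and -0.04 for RELB. Without a filter they were -0.0030 and -0.0018. Over left-out libraries, GNA in shNC ran from -0.15 to 0.04 for NFKBIA and from -0.02 to 0.12 for RELB, and GNA in shNRF2 from -0.09 to 0.12 for RELB. The hairpin in GNA ran from -0.17 to 0.04 for CCL2 and from -0.10 to 0.02 for CXCL3. The difference ran from -0.15 to 0.14 for CXCL2, -0.02 to 0.0039 for CXCL5, -0.0010 to 0.19 for ICAM1 and -0.13 to 0.09 for RELB.

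The replicate numbers were not found to pair libraries: 3 of 18 same-numbered pairs had correlated deviations above 0.1 (from -0.19 to 0.12), and 3 of 12 libraries correlated best with their own number. With the replicate block, the calls of all genes for the difference went from 1068 to 915. Beside CXCL2, the block moved TNFAIP3 with GNA in shNC (adjusted p 0.052) and ICAM1 with the hairpin in DMSO (0.06) past the threshold, and no other member. Limma on FPKM called 657 and 603 genes for the difference, against 1068. The compared groups alone were not run for the difference, which uses all 4. With 3 libraries a group, an SE of about 0.10 for CXCL2, CXCL3, ICAM1 and RELB limits what could be detected.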

Other observations

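The interferon-inducible chemokines CXCL10 and CXCL11, which attract T cells through CXCR3 and belong to the context lists, fell with GNA in both lines and were lower in shNRF2. They had the largest called falls with GNA at 5 CPM or more in their list of other chemokines and cytokines. Of its 15 tested genes, 2 fell and 1 rose in shNC, where 16.1% of all genes were called lower and 14.6% higher. In shNRF2 5 fell and 1 rose, against 17.0% and 16.7%. The list medians were -0.04 and -0.19. With the hairpin, 5 of the 15 were called higher and 4 lower in DMSO, at a median of 0.32. In GNA 4 were higher and 4 lower, at a median of 0.04. The shares of all genes were 16.8% higher and 18.3% lower in DMSO, and 12.8% and 13.3% in GNA. LIF (0.60 ± 0.073 and 0.39 ± 0.074) and IL6 (0.50 ± 0.155 and 0.52 ± 0.146) were called higher with the hairpin in DMSO and GNA. CCL5 was not called with GNA in either line (-0.04 and -0.06). CXCL11 had 66.3 ± 4.35 CPM with DMSO and 35.6 ± 2.77 with GNA in shNC, and 31.2 ± 2.25 and 14.6 ± 2.02 CPM in shNRF2 (SD, n = 3). Its log2 change with GNA was -0.90 ± 0.082 (SE) in shNC and -1.09 ± 0.096 in shNRF2, with edgeR adjusted p of 2.6e-09 and 7.4e-10. With the hairpin it was -1.09 ± 0.084 in DMSO and -1.28 ± 0.094 in GNA (9.1e-11 and 4.4e-11). CXCL10 had 23.2 ± 1.63, 11.4 ± 0.742, 14.0 ± 1.49 and 5.04 ± 1.25 CPM in the same order of groups. CXCL1 stood on the other side in the hairpin comparison, at 0.85 in DMSO and 0.67 in GNA.

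C3, the central complement component and a known NF-kB target, rose with the hairpin by 1.46 ± 0.068 in DMSO and 1.26 ± 0.067 in GNA (edgeR adjusted p 2.2e-15 and 4.8e-14). Of the 13 tested genes in its list of other NF-kB targets, 3 were higher and 3 lower in DMSO, at a median of 0.00. In GNA 2 were higher and 1 lower, at a median of -0.03. Of all genes, 16.8% were called higher and 18.3% lower in DMSO, and 12.8% and 13.3% in GNA. SOD2, of the same list, was lower in DMSO (-0.37 ± 0.048, edgeR adjusted p 6.7e-07). NFKBIE, which encodes a further IkB protein, was lower with the hairpin, at -0.76 ± 0.186 and -1.54 ± 0.180 (0.0019 and 2.1e-07). NFKBIA was also lower with the hairpin in GNA, while with GNA these genes were called in different lines. NFKBIE rose in shNC (0.59 ± 0.166, edgeR adjusted p 0.0072) and was not called in shNRF2 (-0.18 ± 0.201, 0.53). NFKBIA was not called in shNC and fell in shNRF2. Tested directly, the response of NFKBIE differed between the lines by -0.78 ± 0.261 and was not called (edgeR adjusted p 0.073). The NFKBIA difference had the same sign, at -0.68 ± 0.095 (edgeR adjusted p 3.3e-05). REL, an NF-kB subunit, was higher with the hairpin by 0.79 ± 0.118 in DMSO and 0.43 ± 0.115 in GNA (edgeR adjusted p 7e-06 and 0.0056), where RELB was lower. IL32, a cytokine, rose with GNA in shNRF2 by 0.97 ± 0.087 (9.9e-10), and its response differed between the lines by 0.83 ± 0.117 (3.3e-05). Its mean level was 30.7 CPM with DMSO and 33.6 with GNA in shNC, and 15.6 and 30.5 CPM in shNRF2. With the hairpin IL32 was thus lower in DMSO (-0.98 ± 0.086, edgeR adjusted p 1.2e-09). In GNA the lines overlapped and no difference was called (-0.14 ± 0.079, 0.2).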
